A study of Homo sapiens with 6 samples.

Results

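A group of 56 genes was present on the polysomes of RNH1 knockout (KO) K562 cells and near absent from those of wild-type (WT) cells. The genes were chosen by their values: a mean of at least 50 in the KO samples and below 10 in the WT samples, on the scale of normalized counts (reads in the gene divided by 1 size factor per sample, so that levels can be compared between samples but not between genes of unequal length). Of the 60664 genes in the table, 29811 had a read in some sample and 94 met both values. Genes without a symbol (24), long and short noncoding RNAs (8) and genes left out by their symbols (6, which were ARHGAP15, KIF21A, ZNF827 and 3 ribosomal protein pseudogenes) were set aside, which left the 56 genes. The annotation classed 50 of them as protein-coding, a T-cell receptor joining segment among them, and 6 as pseudogenes. The contrast between KO and WT that chose the genes is therefore described for them and not tested.

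RNH1 binds and blocks secreted ribonucleases such as angiogenin and is found on ribosomes. The samples were 3 of RNH1 KO cells, made with CRISPR/Cas9, and 3 of RNH1 WT cells, all of the K562 line. Every sample went through the same isolation of polysomes, with cycloheximide added to hold ribosomes on their mRNAs and a sucrose gradient to separate them, followed by RNA sequencing. K562 is a human leukaemia line that keeps an erythroid and megakaryocytic potential, and GEO's labels describe it as bone marrow and lymphoblast. The study's methods call the 3 samples of a genotype independent replicates, without saying whether they were separate cultures, so a p-value measures the spread between these samples. The sources used here do not say whether the KO cells were 1 clone, and loss of RNH1 and any other difference between the 2 lines of cells cannot be told apart. The paper compared its polysomal data with total RNA, which was not analysed here. More mRNA in the cell and more ribosomes on the same mRNA therefore cannot be told apart here. In a bulk sample, neither can more cells of a type and more RNA per cell. The paper also reports fewer polysomes in RNH1 KO K562 cells, and the scaled counts do not measure the amount of polysomes.

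The libraries held 34908202 to 44882003 reads in genes in KO samples and 39780795 to 46256928 in WT samples, and a count of 3 reads, taken here as the limit that a count of 0 allows, was worth 2.58 to 3.40 normalized counts. At least 1 read was seen for 24467 to 24760 genes in KO samples and for 21507 to 23349 in WT samples. RNH1 itself had 1058, 1144 and 997 normalized counts in KO samples, against 4566, 2857 and 1865 in WT samples, with a log2 fold change of -1.44 (SE 0.26, limma adjusted p = 0.00034), so that its reads were reduced but not absent. CDKN2A, CDKN2B and MTAP, which lie in the part of chromosome 9 that K562 cells have lost, were at 0 in all 6 samples. Of the markers of the labelled lymphoblast type, 3 of 12 B-cell genes passed the filter on low values (a mean of at least 10 over the 6 samples), whereas 16 of 17 erythroid genes did.

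Cells of one blood lineage keep the genes of other lineages and tissues silent, and many of the genes described here are textbook products of other cells. PECAM1 and PLVAP mark endothelium, IL2RB and the T-cell receptor beta locus belong to lymphocytes, and ENPP3 marks basophils and mast cells. Polysomes hold mRNAs that are being translated, and RNA from silent genes is scarce there.

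The T-cell receptor beta locus on chromosome 7 is built from variable (V), diversity (D), joining (J) and constant (C) segments, and a developing T cell cuts and rejoins its DNA so that 1 V, 1 D and 1 J segment come to lie before a constant gene. TRBJ1-3, at chr7:142787630-142787679 on the plus strand of GRCh38, was the only J segment to meet the rule. The 6 segments of its cluster are shown because reads were found over each of them in every KO sample. The sequences are those of the hg38 genome at the GENCODE 44 positions, and the capitals mark the 4 codons of the motif shared by J segments, phenylalanine, glycine, any residue, glycine.
TRBJ1-1: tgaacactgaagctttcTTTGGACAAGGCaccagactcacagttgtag
TRBJ1-2: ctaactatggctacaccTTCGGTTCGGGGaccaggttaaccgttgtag
TRBJ1-3: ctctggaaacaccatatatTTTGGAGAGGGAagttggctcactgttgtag
TRBJ1-4: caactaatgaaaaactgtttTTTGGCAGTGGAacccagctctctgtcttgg
TRBJ1-5: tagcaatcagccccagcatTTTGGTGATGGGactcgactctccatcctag
TRBJ1-6: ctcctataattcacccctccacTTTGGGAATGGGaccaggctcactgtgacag

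Sequences before the start sites of 3 of the genes are shown because 2 of them (PSD4 and SP140L) were among the 4 highest in KO samples and the third (PARP9) sits head to head with a gene that also rose. They were taken from RefSeq on GRCh38.p14 and the first 2 end before the exon at that start site. In PSD4, at chr2:113173721-113173970 on the plus strand, the capitals mark a match to AGATAA on the other strand (the GATA motif) and a match to TGTGGT (the RUNX motif). In SP140L, at chr2:230326943-230327183 on the plus strand, they mark a match to TGACTCA (the AP-1 motif) on the other strand. In PARP9, at chr3:122564322-122564351 on the minus strand, they mark the core of the interferon-stimulated response element (TTTC, any 2 bases, TTTC).
PSD4: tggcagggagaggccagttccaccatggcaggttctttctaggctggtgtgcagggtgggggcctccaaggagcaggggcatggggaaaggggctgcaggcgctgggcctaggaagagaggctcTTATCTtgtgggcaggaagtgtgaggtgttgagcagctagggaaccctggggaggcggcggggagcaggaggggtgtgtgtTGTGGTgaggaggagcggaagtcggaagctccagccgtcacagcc
SP140L: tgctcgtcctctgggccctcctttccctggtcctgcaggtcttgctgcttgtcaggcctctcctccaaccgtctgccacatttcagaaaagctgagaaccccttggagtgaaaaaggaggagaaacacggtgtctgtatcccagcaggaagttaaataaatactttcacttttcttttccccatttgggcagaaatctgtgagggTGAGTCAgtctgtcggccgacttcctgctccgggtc
PARP9: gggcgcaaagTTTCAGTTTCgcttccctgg

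Over the 56 genes, the summed level was 6543 ± 99.9 normalized counts in KO samples and 293 ± 45.8 in WT samples (SD, n = 3 each). These reads made up 0.0172% to 0.0182% of the reads in genes in KO samples and 0.000539% to 0.000701% in WT samples. In every one of the 56 genes the lowest KO sample lay above the highest WT sample, a count that the choice itself favours, and over all 16652 genes tested the share with that order was 25.6%. The smallest gap was a ratio of 1.95 between the lowest KO and the highest WT value of 1 gene. Single values ran as low as 37.8 among KO samples, in the pseudogene GAPDHP43, and as high as 23.0 among WT samples, in LGALS3BP. In 27 genes every KO sample was at or above 50 and every WT sample below 10, and 19 genes had at least 1 WT sample at 0. The plot of levels in each sample shows the KO values close together for most genes and the WT values spread over the few reads they rest on. The KO coefficient of variation had a median of 12.8% over the genes (1.23% for CDC42EP3 to 33.2% for RNF14P1), beside 12.3% over 4593 other genes of the same KO range.

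**Figure D1:**
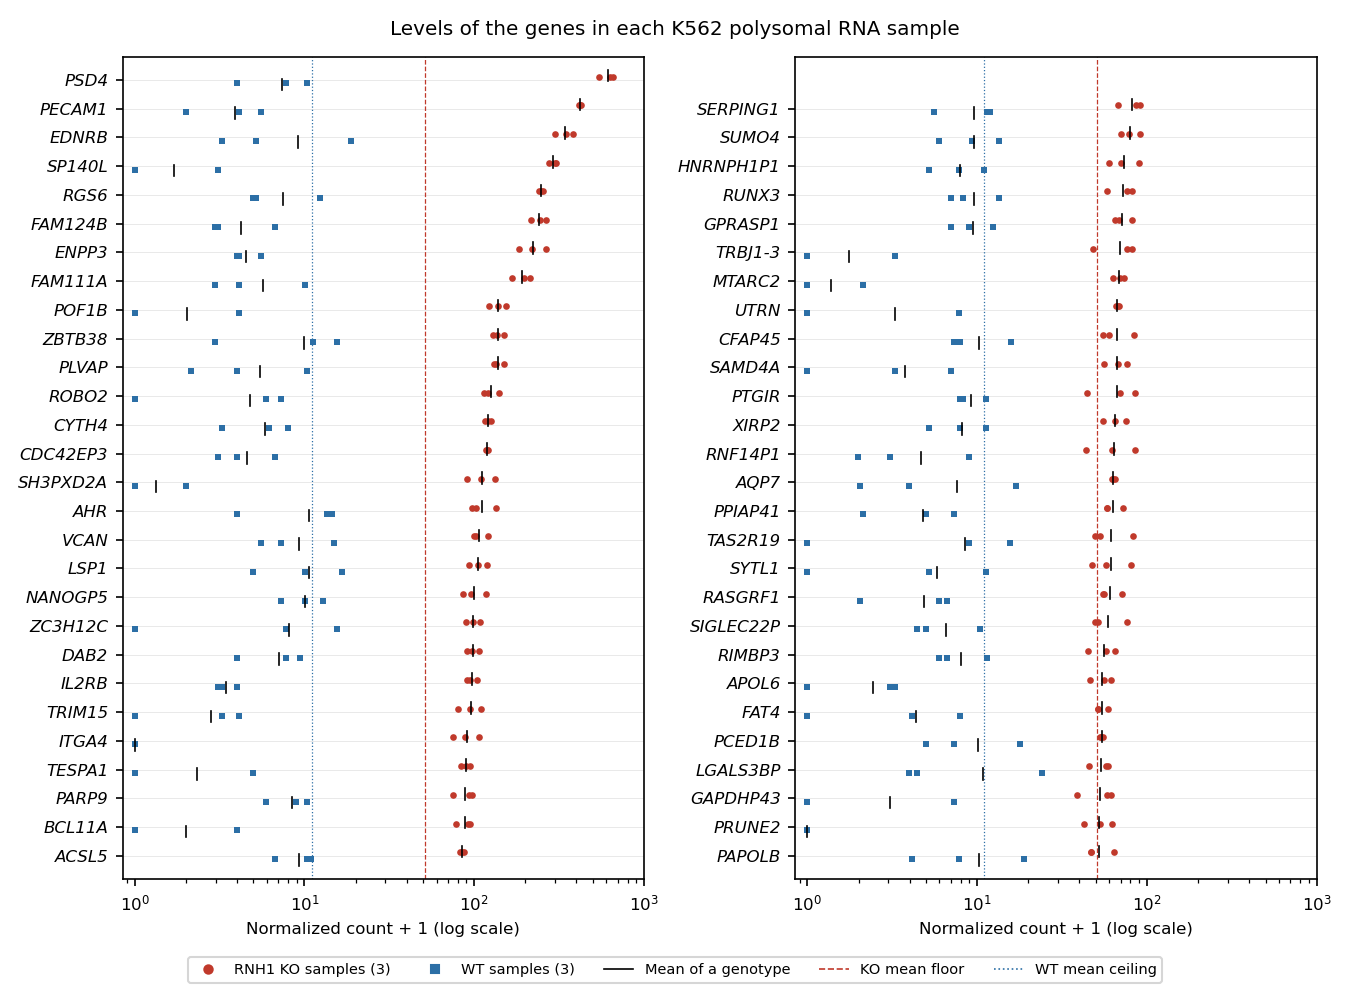
Normalized counts plus 1 (log axis) of 55 of the 56 genes in 3 RNH1 KO samples (circles) and 3 WT samples (squares), with the mean of each genotype as a bar and the thresholds of the choice as vertical lines. The lowest KO sample lies above the highest WT sample in all 55, from PSD4 with a KO mean of 610.5 to PAPOLB with 51.4.

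The genes were grouped by their known roles after they had been chosen, as an aid to description that was not tested. The group of small GTPase regulators, cytoskeletal proteins and some proteins of trafficking, cilia and germ cells held 13 genes, with a summed level of 1669 ± 99.9 normalized counts in KO samples and 66.2 ± 19.8 in WT samples. PSD4, an exchange factor that loads the small GTPase ARF6 with GTP, was the highest of all 56 genes. It had 542, 658 and 632 normalized counts in KO samples, against 9.39, 2.98 and 6.80 in WT samples. The pooled ratio was 96.4 (exact 95% interval 60.8 to 163, which covers counting error only, as do the intervals below). PSD4 lies on chromosome 2 (113157325 to 113209396), and its nearest tested neighbours, PAX8-AS1 and PAX8, did not pass the test. CYTH4, a cytohesin that also acts on ARF proteins, had 120, 114 and 125 in KO samples, against 5.22, 6.96 and 2.27 in WT samples. CDC42EP3, an effector of the GTPase Cdc42, was the steadiest gene in KO samples, at 119, 118 and 116, against 2.09, 2.98 and 5.67 in WT samples. Its antisense partner CDC42EP3-AS1, which carries no symbol in the table, averaged 249 ± 91.3 in KO samples and 4.23 ± 5.49 in WT samples, and the 2 genes share 235 exon bases on opposite strands. The sources used here do not say whether counting used strand, so reads of those bases cannot be told apart.

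POF1B, an actin-binding protein of epithelia encoded on the X chromosome, had 137, 121 and 153 normalized counts in KO samples, against 3.13, 0 and 0 in WT samples. SH3PXD2A (TKS5), the scaffold of podosomes, had 89.5, 109 and 132 in KO samples, against 0, 0.995 and 0 in WT samples, where a single read was counted in all. LSP1, a leukocyte protein that binds filamentous actin, had 92.3, 104 and 118 in KO samples, against 15.7, 3.98 and 9.07 in WT samples. WT reads were thus almost missing for the first 2 and plainly present for LSP1. The other 7 of the set had KO means of 54.6 to 97.1 and WT means of 2.27 to 9.32. They were DAB2 (a clathrin adaptor), UTRN (utrophin), CFAP45 (a protein of cilia), XIRP2 (an actin-binding protein of striated muscle), SYTL1 (an effector of Rab27), RASGRF1 (a Ras exchange factor) and RIMBP3 (a protein of male germ cells).

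Of the adhesion, matrix and guidance genes (7, summing to 979.5 ± 10.98 normalized counts in KO samples and 32.5 ± 18.8 in WT samples), PECAM1 was the highest. PECAM1 (CD31) is the adhesion molecule at the junctions between endothelial cells and is also carried by platelets and leukocytes. It had 417, 422 and 412 in KO samples, against 3.13, 0.995 and 4.53 in WT samples, a pooled ratio of 148 (exact 95% interval 75.01 to 344). PLVAP, which forms the diaphragms of endothelial fenestrae and caveolae, had 129, 133 and 149 in KO samples, against 9.39, 2.98 and 1.13 in WT samples. ROBO2, a receptor for the guidance factor SLIT, had 113, 139 and 120 in KO samples, against 6.26, 4.97 and 0 in WT samples. As in all 56 genes, the KO samples of these 3 lay above the WT samples, an order that the choice favours and that 25.6% of all tested genes had.

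VCAN (versican), a large proteoglycan of the matrix, had 120, 101 and 98.2 normalized counts in KO samples, against 6.26, 13.9 and 4.53 in WT samples. ITGA4, the alpha-4 chain of the integrin VLA-4, had 105, 74.4 and 87.8 in KO samples, against 0 in every WT sample. Against 3 reads over the WT group it was at least 85.0-fold higher in KO. ITGA4 shares 40.9% of its longest transcript, in stretches of 75 bases, with CERKL on the opposite strand, and CERKL was at 0 in all 6 samples. FAT4, a giant cadherin, averaged 53.2 ± 4.24 in KO samples and 3.36 ± 3.49 in WT samples. LGALS3BP, a secreted partner of galectin-3, lay just inside the WT ceiling, with 56.3, 44.9 and 57.7 in KO samples, against 23.0, 2.98 and 3.40 in WT samples, and 1 WT sample held most of its WT reads.

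Receptors and their regulators (9) summed to 1340 ± 96.1 normalized counts in KO samples and 59.7 ± 8.14 in WT samples. EDNRB, the type B receptor for endothelins, had 345, 297 and 379 in KO samples, against 4.17, 17.9 and 2.27 in WT samples. An unnamed noncoding gene on the same strand that shares 124 exon bases with EDNRB averaged 57.9 in KO samples and 0 in WT samples. RGS6, which shortens signals through Gi and Go proteins, had 255, 241 and 248 in KO samples, against 4.17, 3.98 and 11.3 in WT samples. ENPP3 (CD203c), an ectoenzyme of activated basophils and mast cells, had 264, 181 and 219 in KO samples, against 3.13, 2.98 and 4.53 in WT samples. The KO samples of all 3 lay above the WT samples, as the choice favours, an order that 25.6% of all tested genes had.

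IL2RB, the beta chain shared by the receptors for interleukins 2 and 15, had 93.2, 89.7 and 103 normalized counts in KO samples, against 2.09, 2.98 and 2.27 in WT samples. PTGIR, the prostacyclin receptor, had 43.4, 68.3 and 84.4 in KO samples, against 7.30, 6.96 and 10.2 in WT samples. TAS2R19, a bitter taste receptor, had 82.1, 52.0 and 48.2 in KO samples, against 14.6, 0 and 7.93 in WT samples. IL2RB was thus as steady in KO samples as most of the genes, while PTGIR and TAS2R19 varied more between them. GPRASP1, which sorts G protein-coupled receptors for breakdown, averaged 70.6 ± 8.55 in KO samples and 8.46 ± 2.79 in WT samples. AQP7, a channel for water and glycerol, averaged 62.3 ± 1.41 in KO samples and 6.63 ± 8.06 in WT samples.

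Interferon-linked and host defence genes (6) summed to 798.5 ± 23.8 normalized counts in KO samples and 24.7 ± 6.28 in WT samples. SP140L, a nuclear protein of the SP100 family, had 275, 299 and 300.5 in KO samples, against 2.09, 0 and 0 in WT samples, where the pooled ratio of 415 (exact 95% interval 114 to 3429) rested on 2 WT reads. FAM111A, a protease that restricts viruses, had 213, 165 and 195 in KO samples, against 3.13, 1.99 and 9.07 in WT samples. PARP9, which works with the ubiquitin ligase DTX3L, had 96.0, 74.4 and 92.1 in KO samples, against 9.39, 4.97 and 7.93 in WT samples. SERPING1, the inhibitor of complement C1, had 85.8, 89.7 and 66.3 in KO samples, against 10.4, 10.9 and 4.53 in WT samples. PARP9 and SERPING1 kept a low level in all WT samples, which SP140L did not. APOL6, of the apolipoprotein L family, had 45.2, 55.1 and 60.3 in KO samples, against 2.09, 0 and 2.27 in WT samples. TRIM15, a ubiquitin ligase of the TRIM family, averaged 94.2 ± 15.0 in KO samples and 1.80 ± 1.62 in WT samples.

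Transcription factors (4) summed to 406 ± 26.8 normalized counts in KO samples and 28.2 ± 12.4 in WT samples. ZBTB38, a zinc finger protein that binds methylated CpG sites, had 128, 135 and 149 in KO samples, against 14.6, 1.99 and 10.2 in WT samples. AHR, the aryl hydrocarbon receptor, had 96.0, 133 and 101 in KO samples, against 12.5, 2.98 and 13.6 in WT samples, so that 2 of its 3 WT samples were above the ceiling of 10 that its mean met. BCL11A, which silences the fetal globin genes in adult red cells, had 93.2, 77.5 and 91.3 in KO samples, against 0, 2.98 and 0 in WT samples. RUNX3, a RUNX factor of T and NK cells, had 57.2, 75.5 and 80.9 in KO samples, against 7.30, 5.97 and 12.5 in WT samples. BCL11A was the one with almost no WT reads.

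Both lymphocyte genes were absent from at least 1 WT sample. TESPA1, which takes part in T-cell receptor signalling in thymocytes, had 82.1, 88.7 and 93.0 normalized counts in KO samples, against 0, 3.98 and 0 in WT samples. TRBJ1-3 had 81.2, 75.5 and 47.4 in KO samples, against 0, 0 and 2.27 in WT samples. Of the genes whose role is not described here, FAM124B had 265, 243 and 215 in KO samples, against 2.09, 1.99 and 5.67 in WT samples. PRUNE2 had 41.5, 52.0 and 61.1 in KO samples, against 0 in every WT sample, which made it at least 49.1-fold higher in KO against 3 reads over the WT group. PCED1B averaged 53.0 ± 1.39 in KO samples and 9.08 ± 6.95 in WT samples.

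The RNA, ubiquitin-like and metabolic proteins (6) summed to 445 ± 22.8 normalized counts in KO samples and 36.5 ± 2.02 in WT samples, with KO means of 51.4 to 97.7. They were ZC3H12C (of a family of ribonucleases), ACSL5 (an acyl-CoA synthetase), SUMO4 (a SUMO family protein), MTARC2 (a mitochondrial reductase), SAMD4A (the homolog of Smaug, which represses mRNAs in the fly) and PAPOLB (a poly(A) polymerase of the testis). MTARC2 stood out by its WT samples, with 0, 0 and 1.13, against 72.0, 68.3 and 62.0 in KO samples. PAPOLB was the lowest of the 56 genes in KO, with 62.8, 45.9 and 45.6, against 3.13, 17.9 and 6.80 in WT samples. The 6 pseudogenes (NANOGP5, HNRNPH1P1, RNF14P1, PPIAP41, SIGLEC22P and GAPDHP43) summed to 405 ± 41.3 in KO samples and 31.2 ± 3.07 in WT samples.

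Values just inside and outside the thresholds showed no break. Inside the WT ceiling were LGALS3BP, AHR and LSP1, with WT means of 9.78, 9.70 and 9.57 normalized counts, and just outside was CDCA4P3, a pseudogene with 58.1, 76.5 and 53.4 in KO samples, against 13.6, 8.95 and 7.93 in WT samples. At the KO floor PAPOLB lay inside with a KO mean of 51.4. OTOF, the otoferlin gene of hair cells, lay outside with 46.1, 45.9 and 55.1 in KO samples, against 1.04, 8.95 and 0 in WT samples. When the rule was applied without 1 KO sample, 57 to 59 genes were chosen, and 51, 51 and 48 of them were at 50 or more in the left-out sample (KO1, KO2 and KO3). Without 1 WT sample, 51 to 60 genes were chosen, and 41, 42 and 40 of them were below 10 in the left-out sample (WT1, WT2 and WT3). The left-out samples held higher WT values and lower KO values for some of the chosen genes, down to 30.5 in KO1 and up to 35.1 in WT3.

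Genes that mark the lineages of these products were counted among genes that the rule did not choose. Over all genes tested, 24.1% were higher and 24.1% lower in KO samples by limma at an adjusted p below 0.1, with a median log2 fold change of 0.03. Scaling each sample to its library total shifts that median to 0.36 and raises most of the counts of higher genes below, which is named where it moves a count by more than 1.5 times. A gene near absent in 1 genotype passes the filter on low values only through the other, which favours a call in that direction. Of the endothelial markers other than PECAM1, PLVAP and EDNRB, 8 of 16 passed the filter on low values, and 3 were higher, 2 lower and 3 did not pass the test. TIE1, an endothelial receptor kinase, averaged 25.8 ± 4.02 normalized counts in KO samples and 1.72 ± 1.10 in WT samples. MMRN2, of the endothelial matrix, averaged 47.5 ± 18.0 in KO samples and 4.27 ± 2.94 in WT samples. TIE1 and MMRN2 passed the filter only through their KO level, so their higher calls were favoured by the filter. ESAM was higher (adjusted p = 0.021) and lost its call without KO replicate 2, and ICAM2 was lower, at 1712 ± 93.6 in KO samples and 3699 ± 870 in WT samples. CDH5, KDR, EMCN, CLDN5 and ROBO4, which define endothelium, were at 0 in all 6 samples. The summed level of these markers ran from 18790 to 22060 in KO samples and from 26640 to 51790 in WT samples, and most of it was EGFL7, a secreted protein that endothelium makes. EGFL7 had 18488, 19922 and 16819 in KO samples, against 47020, 23605 and 25433 in WT samples, and its lower call (adjusted p = 0.030) was lost with the library total and without WT replicate 1. The part of these markers in the levels of PECAM1, PLVAP and EDNRB was not tested.

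**Figure D2:**
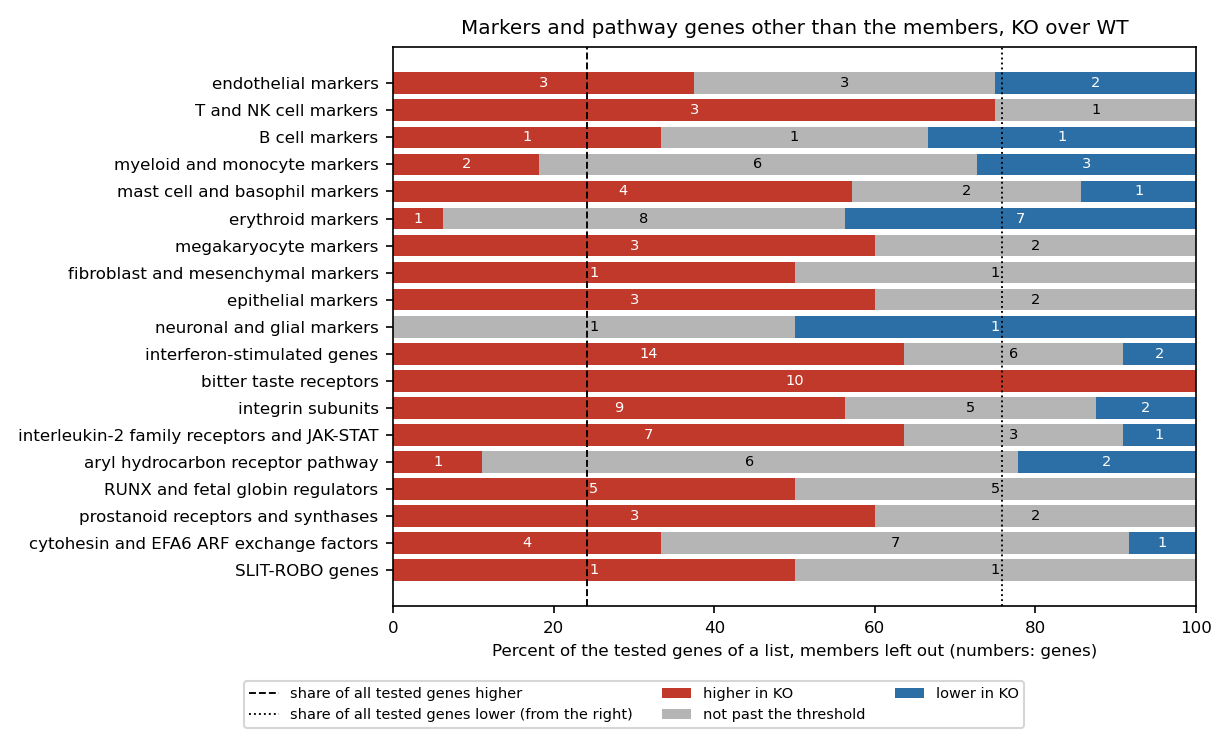
Percent of the tested genes of each marker or pathway list that were higher in KO, not past the threshold or lower in KO by limma, with the 56 chosen genes left out and the number of genes in each bar. The dashed and dotted lines mark the 24.1% of all tested genes that were higher and, from the right, the 24.1% that were lower; all 10 bitter taste receptors were higher and 7 of 16 erythroid markers were lower.

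Among T and NK cell markers, 4 of 19 passed the filter and 3 were higher. CD3G and CD3D, chains of the T-cell receptor complex, averaged 257 ± 10.1 and 565 ± 87.0 normalized counts in KO samples, against 104 ± 19.4 and 308 ± 81.1 in WT samples. CD3E, which the complex also needs, averaged 3.07 in KO samples and 4.59 in WT samples, and CD8A and CD28 were at 0 throughout. The list summed to 818 to 1013 in KO samples and to 389 to 521 in WT samples. Mast cell and basophil markers other than ENPP3 had 4 higher, 1 lower and 2 not passing of 7 tested (12 on the list). FCER1A, TPSAB1, TPSB2 and CPA3, also on this list, were at 0 in all 6 samples. KIT, the receptor for stem cell factor, averaged 1864 ± 142 in KO samples and 703 ± 100 in WT samples (limma adjusted p = 3.1e-05), and HDC and SIGLEC8 were higher at levels below 40. PRG2, the major basic protein, was lower (adjusted p = 0.037), a call lost with the library total and without KO replicate 2. Erythroid markers went the other way, with 1 higher (3 with the library total), 7 lower and 8 not passing of 16. HBA2 and HBG2, an adult alpha and a fetal globin, averaged 1575 ± 357 and 1897 ± 98.3 in KO samples, against 8194 ± 2264 and 9446 ± 2028 in WT samples. HBG1, the other fetal gamma globin, averaged 4978 ± 807 in KO samples and 7191 ± 2138 in WT samples and did not pass (limma adjusted p = 0.11). Sharing of reads between HBG1 and HBG2 was not checked. SLC4A1, the anion exchanger of the red cell, was the exception, with 174 ± 9.30 in KO samples and 54.5 ± 23.4 in WT samples.

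Among the other lineage lists, the myeloid and B-cell markers were mixed. The megakaryocyte, epithelial and fibroblast markers included no lower gene, and the neuronal markers no higher one. Of 11 myeloid markers tested, 2 were higher and 3 lower, but 6 were higher and 1 lower both with the library total and without WT replicate 1, and 1 was lower without KO replicate 3. ITGAX (CD11c) averaged 75.9 ± 17.9 normalized counts in KO samples and 12.8 ± 10.9 in WT samples, and CEBPA, a master factor of granulocytes, averaged 301 ± 28.1 in KO samples and 1020 ± 152 in WT samples. Of 5 megakaryocyte markers, 3 were higher and none lower, GP6 with a log2 fold change of 1.60 (SE 0.25, limma adjusted p = 0.00012), and 1 was higher without KO replicate 2. Of 3 B-cell markers, RAG1 was higher (140 ± 6.18 in KO samples, 68.9 ± 24.4 in WT samples). Outside the blood, 3 of 5 epithelial, 1 of 2 fibroblast (2 with the library total) and 0 of 2 neuronal markers tested were higher. The fibroblast one was FN1 (fibronectin; adjusted p = 0.065), a call lost without any 1 of the KO replicates and without WT replicate 3. CDH1 (E-cadherin) averaged 31.4 ± 4.14 in KO samples and 3.48 ± 3.34 in WT samples, and passed the filter only through its KO level.

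Pathway partners of the chosen genes were counted in the same way. Of 22 interferon-stimulated genes tested besides the chosen ones, 14 were higher, 2 lower and 6 did not pass. DTX3L, the partner of PARP9, had 226, 217 and 252 normalized counts in KO samples, against 30.3, 32.8 and 14.7 in WT samples (log2 fold change 3.19, SE 0.32, limma adjusted p = 1.4e-06). TAP1, the peptide transporter of antigen presentation, averaged 169 ± 25.4 in KO samples and 23.4 ± 10.6 in WT samples, and PSMB9, a subunit of the immunoproteasome, averaged 54.1 ± 6.03 in KO samples and 13.5 ± 7.68 in WT samples. BST2 (tetherin) went the other way, at 1745 ± 68.5 in KO samples and 5046 ± 1006 in WT samples. MX1, MX2, OAS1, OAS2, OASL, IFI44 and IFI44L, textbook targets of type I interferon, were at 0 in all 6 samples.

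All 10 bitter taste receptors tested besides TAS2R19 were higher in KO samples, with a median log2 fold change of 1.59, and another 13 did not pass the filter. TAS2R30 had 157, 108 and 95.6 normalized counts in KO samples, against 21.9, 18.9 and 13.6 in WT samples. TAS2R13 had 105, 56.1 and 80.1 in KO samples, against 14.6, 2.98 and 14.7 in WT samples. Many of these single-exon genes lie side by side on chromosome 12, TAS2R50 and TAS2R46 within 34707 and 38745 bases of TAS2R19, and TAS2R19 lies inside the bodies of PRH1 and TAS2R14 on the same strand. PRH1 averaged 111 ± 35.6 in KO samples and 35.1 ± 15.8 in WT samples, and TAS2R14 82.5 ± 4.79 in KO samples and 27.4 ± 9.94 in WT samples. The list is therefore not a set of independent loci. TAS2R50 and TAS2R46, with WT means of 4.35 and 3.86, passed the filter only through their KO level.

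Among 16 integrin subunits tested besides ITGA4, 9 were higher, 2 lower and 5 did not pass. ITGB2, the beta-2 chain of leukocyte integrins, averaged 1562 ± 259 normalized counts in KO samples and 225 ± 92.8 in WT samples (log2 fold change 2.86, SE 0.26, limma adjusted p = 4.7e-07). The 2 beta chains that pair with alpha-4 were present in both genotypes. ITGB1 averaged 10620 in KO samples and 9479 in WT samples and did not pass the test (adjusted p = 0.53), and ITGB7 was higher, at 533 ± 14.6 in KO samples and 239 ± 95.5 in WT samples. ITGA2 and ITGAE were lower. The higher subunits numbered 4 without KO replicate 2 and 5 without WT replicate 3.

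Of 11 interleukin-2 family receptors and JAK-STAT genes tested besides IL2RB, 7 were higher, 1 lower and 3 did not pass. IL9R had 917, 818 and 782 normalized counts in KO samples, against 36.5, 24.9 and 24.9 in WT samples (log2 fold change 4.84, SE 0.25, limma adjusted p = 1.9e-09). IL4R averaged 405 ± 23.0 in KO samples and 127 ± 37.4 in WT samples. IL2RG, the common gamma chain that IL2RB, IL4R and IL9R use, averaged 181 ± 9.07 in KO samples and 217 ± 85.5 in WT samples and did not pass (adjusted p = 0.64). IL2RA averaged 0.308 in KO samples and 0.378 in WT samples, so 2 of the 3 chains of the high-affinity interleukin-2 receptor were above the limit of 3 reads in KO samples. The higher genes of this list numbered 4, 3 and 3 without KO replicate 1, 2 or 3.

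The prostanoid genes were measured as the pathway of PTGIR. PTGS1 (cyclooxygenase-1), which makes the precursor of prostacyclin, averaged 1106 ± 40.7 in KO samples and 106 ± 10.7 in WT samples (log2 fold change 3.38, SE 0.21, limma adjusted p = 8.6e-09), and 3 of 5 prostanoid genes tested were higher and none lower, or 1 higher without KO replicate 2.

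AHR's pathway did not move with it as a list, with 1 higher, 2 lower and 6 not passing of 9 genes tested. The one that rose was CYP1A1, the best known target of AHR, with 202, 165 and 221 normalized counts in KO samples, against 43.8, 28.8 and 32.9 in WT samples (log2 fold change 2.46, SE 0.29, limma adjusted p = 6.5e-06). Scaling to the library total gave 5 higher and 1 lower, and 3 were higher without WT replicate 2. Of 10 RUNX and fetal globin regulators tested besides BCL11A and RUNX3, 5 were higher and none lower. ZBTB7A, another repressor of fetal globin, averaged 1461 ± 317 in KO samples and 617 ± 168 in WT samples, and RUNX1 3484 ± 18.8 in KO samples and 2287 ± 278 in WT samples. NFE4, counted among the 5, met the values of the rule itself and had been left out as a noncoding RNA, with a mean of 54.0 in KO samples and 0.332 in WT samples.

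ARF exchange factors and their targets were mixed, with 4 higher, 1 lower and 7 not passing of 12 tested besides PSD4 and CYTH4. IQSEC2 averaged 976 ± 77.9 normalized counts in KO samples and 432 ± 119 in WT samples, ARF4 was lower, and ARF6, the substrate of PSD4, did not pass the test (adjusted p = 0.69, 3584 ± 511 in KO samples and 3309 ± 272 in WT samples). The higher genes numbered 8 with the library total, 2 without KO replicate 2 and 1 without WT replicate 3. Of the partners of ROBO2, 2 passed the filter and SRGAP2 was higher, at 2584 ± 156 in KO samples and 1188 ± 304 in WT samples. With the library total 2 were higher.

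Genes next to the chosen ones were tested to see whether single genes or stretches of chromosome differed. Within 100 kb of the 56 genes, and leaving out those that met the values of the rule, 134 genes were tested. Of these, 46 (34.3%) were higher, 23 (17.2%) lower and 65 did not pass, beside 24.1% higher and 24.1% lower over all genes. Neighbours at the same locus are not independent, such as the segments beside TRBJ1-3 and the bitter taste receptors beside TAS2R19. Those near absent in WT samples, TRIM10 and MTARC1 among them, passed the filter only through their KO level, which favours higher calls. The median log2 fold change was 0.29, beside 0.03 over all genes. Protein-coding neighbours alone gave 33 higher and 21 lower of 109, and neighbours that overlap none of the 56 genes gave 40 higher and 21 lower of 120. Without KO replicate 3 the lower neighbours fell to 12. Of the 43 genes with a tested neighbour, 24 had a higher one. The share of other genes with a higher neighbour was not counted, so this count has no background beside it.

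**Figure D3:**
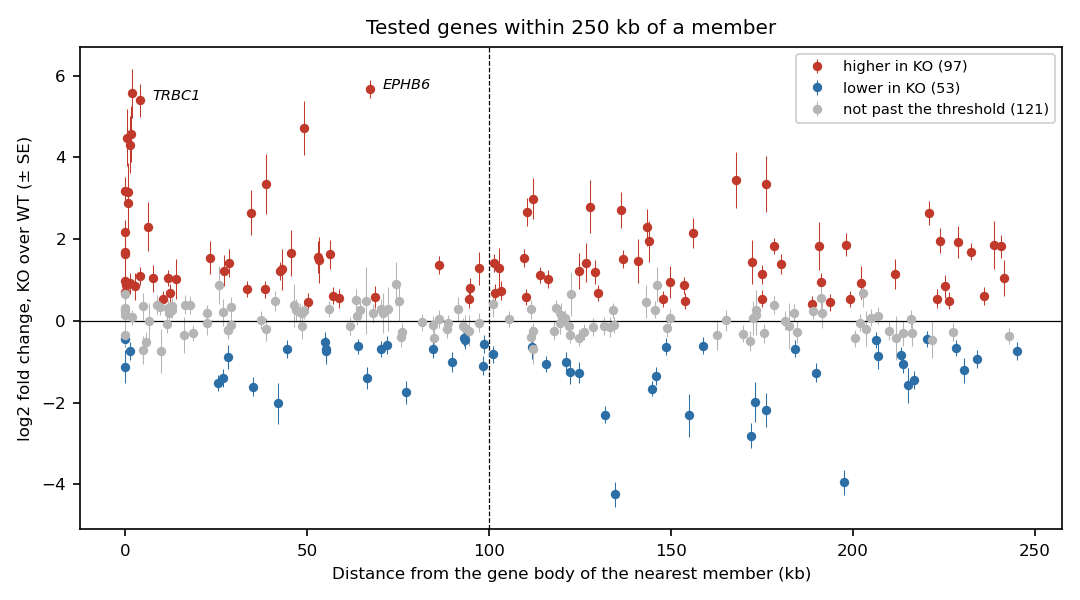
Log2 fold change (KO over WT, ± SE) from limma of the 271 genes tested within 250 kb of a chosen gene, against distance from its gene body in kb, with the 100 kb limit as a dashed line. Genes that met the values of the rule are left out. The highest values, TRBC1, TRIM10 and EPHB6 among them, lie within 100 kb, and genes past 100 kb include both higher and lower ones.

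Among the 134 tested neighbours, which leave out genes that met the values of the rule, EPHB6 had the largest change. EPHB6 is an ephrin receptor without kinase activity that thymocytes express. It had 5601, 6717 and 7493 normalized counts in KO samples, against 159, 141 and 94.1 in WT samples (log2 fold change 5.67, SE 0.22, limma adjusted p = 6.06e-11), and it starts 67382 bases beyond TRBJ1-3. TRIM10, a TRIM family gene 1995 bases from TRIM15, had 48.9, 47.9 and 42.2 in KO samples, against 0 in every WT sample. Beside MTARC2, its paralog MTARC1 had 24.0, 20.4 and 24.1 in KO samples, against 0 in every WT sample, and C1orf115 averaged 42.7 in KO samples and 1.13 in WT samples. TRIM10, MTARC1 and C1orf115 were thus near absent in WT samples as well, but TRIM26, 11762 bases from TRIM15, averaged 1540 in KO samples and 744 in WT samples. SP100, at 12210 bases from SP140L, averaged 1117 ± 23.7 in KO samples and 711 ± 200 in WT samples, and SP110, at 101455 bases, averaged 448 ± 13.9 in KO samples and 169 ± 28.9 in WT samples. Both are of the same family and both were higher (limma adjusted p = 0.017 and 0.00013), from a level that was not low in WT samples.

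Other neighbours did not follow. Next to PECAM1, the lower genes included MILR1, an inhibitory receptor of mast cells 35261 bases away. MILR1 had 155, 127 and 135 normalized counts in KO samples, against 412, 390 and 477 in WT samples (limma adjusted p = 3.8e-05). TEX2 and DDX5 did not pass. BST2 was among the lower neighbours of PLVAP. CYTH4 and IL2RB, the closest pair among the 56 genes at 106909 bases, enclose RAC2 and C1QTNF6, which did not pass the test, while CSF2RB, a beta chain shared by several cytokine receptors and 178227 bases beyond IL2RB, was higher at 1169 ± 125 in KO samples and 329 ± 49.0 in WT samples.

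At the T-cell receptor beta locus the reads lay over the D segment, the first J cluster and its constant gene. TRBD1 averaged 16.9 ± 2.67 normalized counts in KO samples and 0.348 ± 0.602 in WT samples. TRBJ1-1, TRBJ1-2 and TRBJ1-4 averaged 18.9, 21.6 and 19.8 in KO samples and were at 0 in every WT sample, and TRBJ1-5 and TRBJ1-6 averaged 24.1 and 32.8 in KO samples, against 2.02 and 1.04 in WT samples. TRBC1, which starts 4015 bases beyond TRBJ1-3, had 738, 768 and 563 in KO samples, against 18.8, 5.97 and 30.6 in WT samples (log2 fold change 5.39, SE 0.41, limma adjusted p = 8.31e-08). In every J1 segment and in TRBC1 the lowest KO sample lay above the highest WT sample, an order that 25.6% of all tested genes had.

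The second cluster was nearly empty. Of its 8 J segments 1 had a read, and TRBC2 averaged 6.22 in KO samples and 0.995 in WT samples. Of 61 V genes 6 had a read in any sample, and the highest averaged 5.27 in KO samples (TRBV30) with no read in WT samples. Beside that V gene, the KO means were 18.9 to 68.0 for the 6 J1 segments and 690 for TRBC1, counts that are not corrected for length. Whether the reads came from a rearranged locus was not tested. J segments are about 50 bases long and share reads with any longer RNA that crosses them, so the 6 values are not independent of each other.

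**Figure D4:**
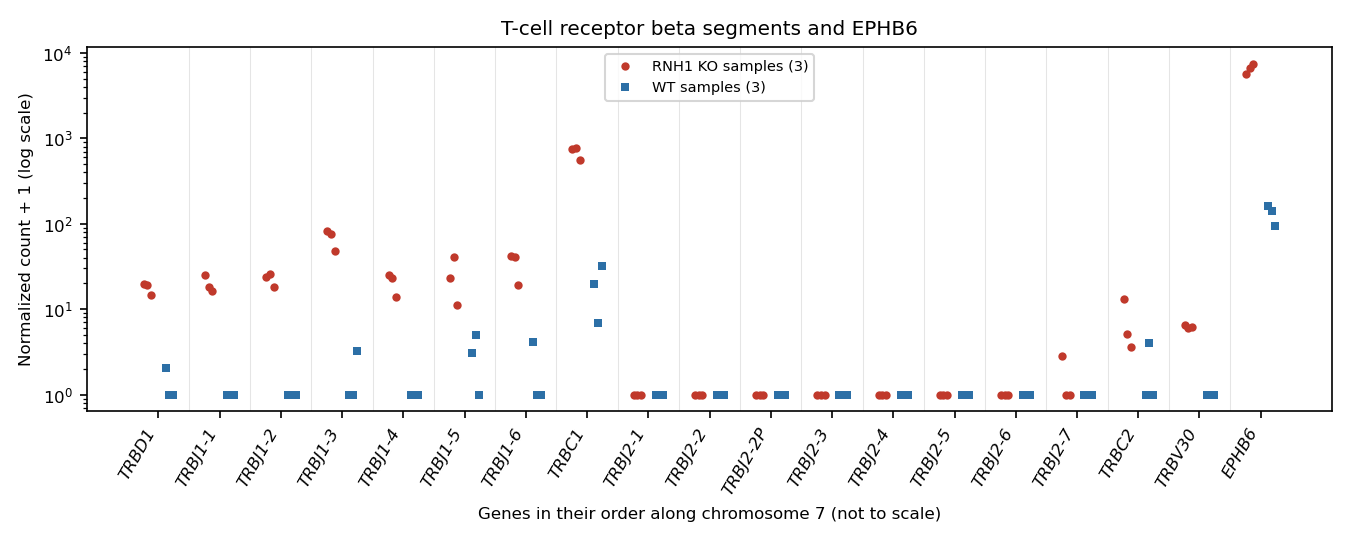
Normalized counts plus 1 (log axis) in 3 RNH1 KO samples (circles) and 3 WT samples (squares) for the genes of the T-cell receptor beta locus from TRBD1 to TRBV30, and for EPHB6, in their order along chromosome 7 (not to scale). KO samples lie above WT samples from TRBD1 to TRBC1 and at EPHB6, while 7 of the 8 segments of the second J cluster have no read.

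Reads of a related or surrounding gene can be counted for some of the chosen genes. NANOGP5, PPIAP41 and GAPDHP43 lie inside INVS, TTC17 and GOLM2 on the same strand, and these hosts did not pass the test, INVS with 1492 ± 21.9 normalized counts in KO samples and 1207 ± 87.5 in WT samples (limma adjusted p = 0.20). SUMO4 lies inside TAB2, which was higher, with 2737 ± 183 in KO samples and 1718 ± 540 in WT samples. Of the genes from which the copies derive, NANOG had 1 read in all, GAPDH and HNRNPH1 did not pass the test, and PPIA, RNF14 and SUMO2 were lower in KO, PPIA at 49149 ± 3036 in KO samples and 119820 in WT samples. The copies and their parents thus did not move alike.

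In stretches of 75 bases, 36 of the 55 genes with a long enough transcript shared none with the transcripts of another gene. RIMBP3 shared 85.9% of its transcript, mostly with RIMBP3B and RIMBP3C, and SIGLEC22P 68.8%, so their reads may belong in part to the copies. RIMBP3B averaged 14.1 in KO samples and 2.38 in WT samples, and RIMBP3C 8.23 in KO samples and 4.16 in WT samples. AHR shared 34.0% with genes listed at or near 0. PARP9 and DTX3L share 139 exon bases on opposite strands, and PCED1B shares 123 with AMIGO2, which averaged 136 ± 3.85 in KO samples and 30.03 ± 6.47 in WT samples.

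By chromosome, 8 of the 56 genes (14.3%) lay on chromosome 2, which holds 6.66% of the genes with a read. They were PSD4, SP140L, FAM124B, CDC42EP3, ITGA4, BCL11A, XIRP2 and RNF14P1, spread over the chromosome from CDC42EP3 at 37641882 to SP140L at 230403732. Chromosome 22 held 4 (CYTH4, IL2RB, RIMBP3 and APOL6), or 7.14% beside 2.55%. Chromosomes 1 (RUNX3, MTARC2, CFAP45 and SYTL1 among them), 6 (ENPP3, TRIM15, SUMO4, HNRNPH1P1 and UTRN) and 11 (FAM111A, LSP1, ZC3H12C, SERPING1 and PPIAP41) held 5 each. Chromosomes 3 (ZBTB38, ROBO2 and PARP9), 7 (AHR, TRBJ1-3 and PAPOLB), 9 (NANOGP5, AQP7 and PRUNE2), 12 (TESPA1, TAS2R19 and PCED1B) and 19 (PLVAP, PTGIR and SIGLEC22P) held 3 each. Chromosomes 5 (VCAN and DAB2), 10 (SH3PXD2A and ACSL5), 14 (RGS6 and SAMD4A), 15 (RASGRF1 and GAPDHP43), 17 (PECAM1 and LGALS3BP) and X (POF1B and GPRASP1) held 2 each, and chromosomes 4 (FAT4) and 13 (EDNRB) 1 each. After CYTH4 and IL2RB, the next closest pairs were IL2RB and APOL6 at 1450262 bases and FAM111A and SERPING1 at 1523577 bases, so the genes were scattered and not in 1 block.

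The protein-coding genes of the group had longer bodies than other genes, with a median of 55358.5 bases, beside 30452 over 12083 protein-coding genes tested. Their canonical transcripts had a median of 4216.5 bases, beside 3240, and 10.5 exons, beside 9. Single-exon genes were 10 of the 56, of which 5 were protein-coding.

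Start regions (300 bases, from 250 before to 50 after the RefSeq start) were found for 38 of the 56 genes and held fewer CpG sites than those of other tested genes. The median was 14.5 CpG sites (1 to 39), beside 26 in 9598 protein-coding genes tested and 25 in 2246 of the same KO range. In 1840 other protein-coding genes with a WT mean above 0 and below 10 it was 14, close to that of the 38. In 5560 with a WT mean below 10, those at 0 included, it was 8. Fewer than 5 CpG sites were found in 8 of the 38 (21.1%), beside 22.7% of the 1840, 34.9% of the 5560 and 5.45% of tested genes.

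Of the 7 motifs searched on either strand, 5 were found at about the share in all 27305 start regions and 2 (CCGGAAG and the core of the interferon-stimulated response element) at another share, which was not tested. AGATAA was found in 13.2% of the 38 (PSD4, CDC42EP3, TAS2R19, XIRP2 and ZBTB38), beside 10.5% of all, and TGTGGT in 10.5% (PSD4, RUNX3, TRIM15 and ZBTB38), beside 13.2%. TGACTCA was found in 5.26% (SP140L and SYTL1), beside 4.90%, GCGTG, the core that AHR binds, in 36.8%, beside 36.4%, and CANNTG in 71.1%, beside 69.0%. CCGGAAG, the ETS motif, was found in 2.63% (LGALS3BP), beside 10.6%. The core of the interferon-stimulated response element, looked for after the data were seen, was found in 10.5% (CDC42EP3, FAM111A, LGALS3BP and TAS2R19), beside 3.66%, and the PARP9 match shown with the sequences lies in another of its start regions, 137 bases of which are shared with that of DTX3L. A match is a description of letters and not a site that was seen to be used.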

How the data were processed

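Polysomal RNA of 3 RNH1 KO and 3 RNH1 WT K562 samples was sequenced by the authors (stranded total RNA libraries, paired reads). The deposited values are signal, namely the reads counted in each gene after the authors' scaling with 1 size factor for a sample, as DESeq2 sets it. Per the submitters' processing notes, HISAT2 2.2.1 and featureCounts 2.0.1 were used before DESeq2 1.36.0, on GRCh38. The table also holds the authors' means, fold changes and p-values, which were not used. Whole reads were recovered for 100% of values above 0 (tolerance 1e-06), and 1 read was worth 0.861 to 1.13 normalized counts. The members and lists were chosen with earlier results of these data known.

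Genes with a mean of at least 10 over the 6 samples were tested on log2(value + 1) with limma 3.58.1 (R 4.3.3, trend and robust), KO over WT, on all 6 samples, with Benjamini-Hochberg adjusted p below 0.1 as the threshold. Fold changes on this scale understate those of low genes. Per-sample values are given for chosen genes with a KO mean of at least 100, with 0 in every WT sample, at a threshold or on a list, and per list up to 4 called genes with the largest change are named; others named, such as MTARC2, EPHB6, IL2RG and the neighbours, were picked after their values were seen. Alternatives were other pseudocounts, filters and scalings, edgeR 4.0.16 and DESeq2 1.42.0 on recovered reads, a replicate block, and leaving out each sample. Positions are of GENCODE 44, to which 60463 of 60664 IDs matched. The fit was tested on simulated data. Values of 1 of the 56 genes and of some list genes are not reported here.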

Additional observations from a re-analysis of the deposited data

How the results depend on the processing

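The count of chosen genes followed the thresholds: 148 with a KO floor of 25, 19 with a KO floor of 100, 28 with a WT ceiling of 5 and 108 with 20. It was 78 with scaling to the library total and 65 with upper-quartile scaling, both holding all 56 genes, and 51 to 60 with 1 sample left out. Their summed KO level was 7379 and 6880 normalized counts under those scalings and 6486 to 6576 with 1 sample left out. Over all genes 4010 were higher and 4012 lower. Scaling to the library total gave 6697 and 2404 and, over all genes, a median of 0.36 (log2; 0.17 for the upper quartile). With 1 sample left out 2778 to 4575 genes were higher and 3057 to 4361 lower. Of the neighbours within 100 kb, 78 were higher and 8 lower with the library total, beside 40.1% of all genes higher, and 32 to 57 higher and 12 to 25 lower with 1 sample left out. Within 250 kb 97 were higher and 53 lower. Without a filter the counts were 4781 and 4016, by edgeR 3741 and 4291 and by DESeq2 4068 and 4225. The cause of these moves was not tested.

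Samples with the same number did not deviate together (correlations of -0.163, -0.192 and -0.268), so the numbers were not taken as pairs. A fit with the replicate number as a block gave 3243 genes higher and 3310 lower, and 38 neighbours higher and 17 lower. At 2.58 to 3.40 normalized counts for 3 reads, WT levels of most of the 56 genes rest on a few reads each.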

Other observations

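The opposite rule, a mean below 10 in KO samples and of at least 50 in WT samples with the same genes left out, found 13 genes of 32 that met both values, beside 56 of 94 here. SELENOP, which carries selenium in plasma, was the highest, with 8.31, 8.16 and 3.44 normalized counts in KO samples, against 484, 338 and 946 in WT samples. PRKD1, a protein kinase of the D family, had 8.31, 0 and 3.44 in KO samples, against 130, 176 and 143 in WT samples. CCL3, a chemokine, had 8.31, 5.10 and 9.47 in KO samples, against 76.2, 35.8 and 39.7 in WT samples. These values chose the genes and were not tested.

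Of the genes that met both values and were set aside by symbol, 3 code for proteins. KIF21A, a kinesin motor, had 821, 760 and 927 in KO samples, against 0, 9.95 and 13.6 in WT samples, and ARHGAP15, a GTPase-activating protein for Rac, had 377, 241 and 238 in KO samples, against 2.09, 0 and 2.27 in WT samples. ZNF827 had 81.2, 89.7 and 96.4 in KO samples, against 1.04, 0 and 0 in WT samples.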
